A study of Mus musculus with 12 samples.

Results

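Cardiomyocytes with a high Mitotracker signal were compared between Glut1 transgenic and wild-type (WT) hearts at postnatal day 1 (P1). The comparison used the libraries whose labels name a higher Mitotracker signal, which were 6 of the 12 libraries of the study, with 4 Glut1 transgenic and 2 WT replicates. It covered the autosomal genes, 23205 of the 24421 genes counted, of which 11816 had enough reads to be tested. Glut1 transgenic hearts carried aMHC-hGLUT1tg, aMHC-Cre tg and the R26+/YFP reporter. The first of these places human GLUT1 under the αMHC promoter, which is active in cardiomyocytes. The labels call the controls wild type, and the methods of the study give them the same Cre and reporter alleles without the GLUT1 transgene. All hearts were of the CD1 strain background. Live cells were sorted by YFP, which marks the lineage in which αMHC-Cre has been active, and by Mitotracker, a dye that accumulates in mitochondria. Each Glut1 transgenic library was labelled with a heart of its own. Both WT labels begin with the same heart number, so these 2 libraries may come from 1 heart, and p-values then measure a spread that may be technical.

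The heart of the newborn mouse takes up glucose through Glut1, a transporter that works without insulin, and later relies on the insulin-responsive transporter Glut4. Around birth, cardiomyocytes turn from glucose and lactate toward fatty acids as fuel, enlarge their mitochondria and leave the cell cycle. DNA is copied in S phase, when the MCM helicase is loaded on origins and histones are made for the new chromatin, and the cell then divides its chromosomes in mitosis.

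The study names Mitotracker-high cells Tnnt2low, since they held less of the thin-filament protein cardiac troponin T, encoded by Tnnt2. From its RNA sequencing, the study also reports slightly less Tnnt2 mRNA in these cells than in Mitotracker-low cells. Tnnt2 stood at 13904, 13140, 12661 and 13976 CPM (reads scaled to library size with TMM) in Glut1 transgenic replicates 1 to 4 and at 15741 and 16731 CPM in WT replicates 1 and 2. All Glut1 transgenic libraries were thus below both WT libraries, with a log2 fold change of -0.27 (SE 0.11, edgeR adjusted p = 1). Against Mitotracker-low cells, Tnnt2 was lower in Mitotracker-high cells of Glut1 transgenic hearts (log2 fold change -0.42, SE 0.09, edgeR adjusted p = 0.00723), while in WT hearts the difference was -0.04 (SE 0.13, edgeR adjusted p = 1). The Mitotracker-low WT libraries held 16250 and 17200 CPM, so both WT pairs also had the lower level in Mitotracker-high cells. With the heart label as a block, chosen after seeing the data, the differences were -0.41 (SE 0.10, edgeR adjusted p = 0.012) and -0.04 (SE 0.14, edgeR adjusted p = 0.987). The cells are called Mitotracker-high here. Reads in genes numbered 7301762 to 9815069 in the Glut1 transgenic and 6399746 and 6803962 in the WT libraries. Reads outside every exon, per gene read, averaged 0.962 ± 0.0756 (SD, n = 4) in Glut1 transgenic and 1.31 ± 0.258 (SD, n = 2) in WT libraries (exact permutation test, two-sided, p = 0.0667, as small as 4 against 2 libraries allow). This ratio was 1.13 in WT replicate 1 and 1.495 in WT replicate 2. Glut1 transgenic replicates 2 and 4 held reads of the Y-linked gene Ddx3y (571 and 510) and the other 4 libraries held at most 4, so sex differed in part between the genotypes. The part of sex and of reads outside exons in the results was not tested beyond the values given below.

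Across all autosomal genes tested, few passed an adjusted test between the genotypes. With 2 WT libraries, few calls do not show that the genotypes were alike. At an adjusted p under 0.05, edgeR called 1 gene (0.00846%), the histone gene Hist1h2bj, and DESeq2 called 5 of the 16253 it tested (0.0308%): Hist1h2bj, Eln, Hells, Slc2a1 and Sumo2. For Glut1 against WT Tnnt2low cells the study reports more differentially expressed genes than either tool called here, counted over a fold change cut-off. At an unadjusted p under 0.05, edgeR counted 106 genes (0.897%) as higher and 136 (1.15%) as lower in Glut1 transgenic hearts, and DESeq2 counted 283 in both directions. The edgeR count over both directions was 2.05% of genes, under the share this threshold passes when no gene differs. The 4 Glut1 transgenic libraries all lay above both WT libraries for 635 genes (5.37%) and below them for 707 (5.98%). Of the 15 possible assignments of the 6 libraries, 1 puts a gene apart in a given direction. These shares were thus no larger than chance gives. The median log2 fold change was 0.00, and 90% of genes had an absolute value under 0.74. Counts of list members below are to be read against these shares. A gene is called higher or lower below where its unadjusted p in edgeR was under 0.05, and the adjusted p of edgeR was 1 wherever none is given. These words describe values and do not by themselves show a difference.

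Among glucose transporters, the genes of Glut1 and Glut3 stood higher in every Glut1 transgenic library. Slc2a1, the mouse gene for Glut1, stood at 79.7, 92.3, 44.9 and 75.3 CPM in Glut1 transgenic replicates 1 to 4. In WT replicates 1 and 2 Slc2a1 stood at 27.7 and 15.9 CPM. Every Glut1 transgenic library thus lay above both WT libraries, and replicate 3 was the lowest of them. The log2 fold change of Slc2a1 was 1.75 (SE 0.42, edgeR adjusted p = 1), and Slc2a1 rose in DESeq2 (adjusted p = 0.0104) and in edgeR with no filter on low counts (adjusted p = 0.0106). Slc2a1 spans 119108711 to 119137983 on mm10 chromosome 4, and transgene-derived human reads counted there cannot be told apart from those of the mouse gene. Slc2a3, which encodes the neuronal-type transporter Glut3, stood at 29.2, 30.2, 9.90 and 21.0 CPM in Glut1 transgenic and at 4.17 and 2.24 CPM in WT libraries. Replicate 3 was again the lowest of the Glut1 transgenic libraries, and both groups were again apart. The log2 fold change of Slc2a3 was 2.81 (SE 0.72, edgeR adjusted p = 1), its adjusted p was 0.659 with DESeq2, and it passed in edgeR with no filter on low counts (adjusted p = 0.0238). Of the 30-base words of its transcripts, Slc2a3 shares 2.60% with transcripts of other genes, and Slc2a1 shares 0%. Reads that begin in shared words can be set aside as not unique or counted for another gene. Of the other 4 transporters tested, Slc2a4, Slc2a8, Slc2a10 and Slc2a12, 0 had an unadjusted p under 0.05 in edgeR. Slc2a4, the gene for Glut4, named after its values were seen, was at 88.9 to 104 CPM in Glut1 transgenic libraries and at 136 and 94.2 CPM in WT libraries, which overlap. The plot of 6 genes by library shows both transporters beside 4 genes of the cell cycle, the matrix and chromatin.

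**Figure D1:**
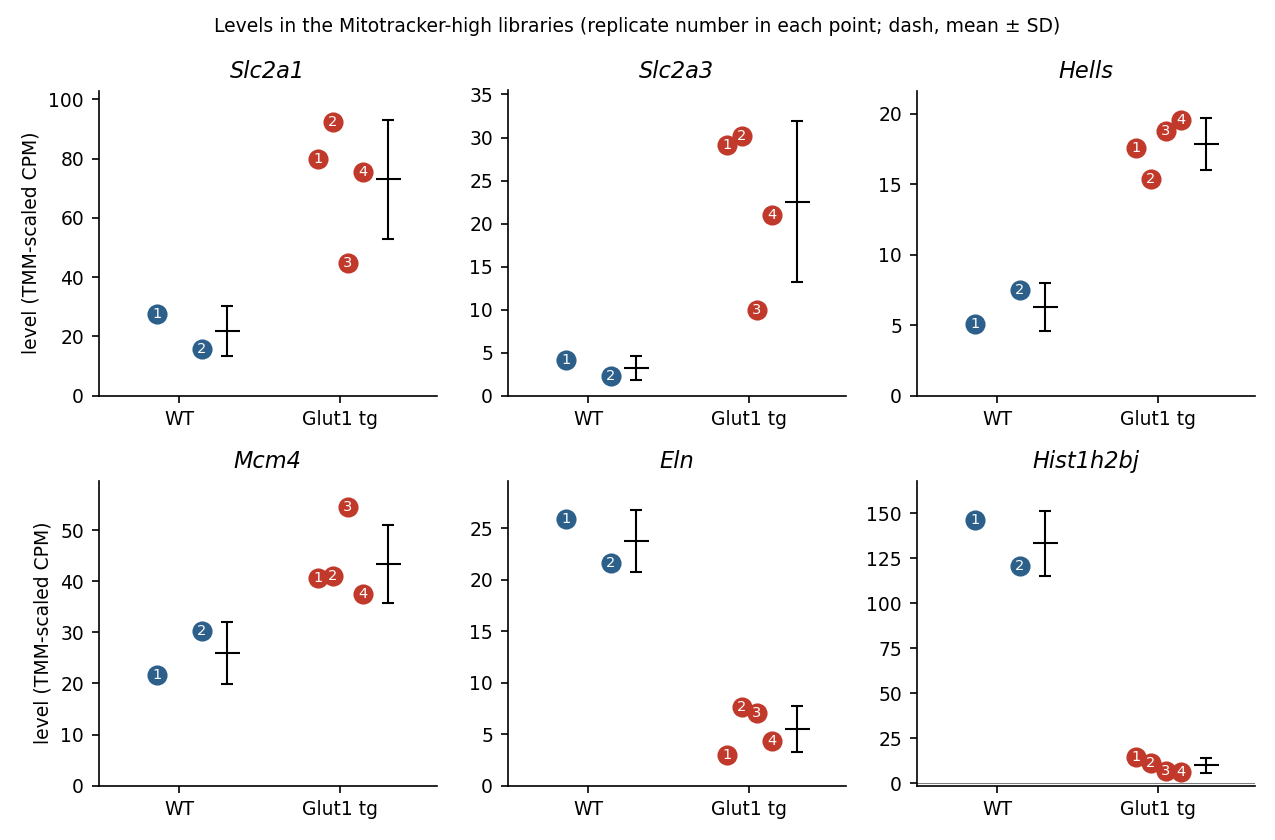
TMM-scaled level in CPM (vertical axis, from 0) of Slc2a1, Slc2a3, Hells, Mcm4, Eln and Hist1h2bj in the 2 WT (blue) and 4 Glut1 transgenic (red) Mitotracker-high libraries. Each point is 1 library with its replicate number, and the dash with whiskers is the mean ± SD of the group. For each of the 6 genes the groups do not overlap, with Slc2a1 at 44.9 to 92.3 CPM in Glut1 transgenic and at 15.9 and 27.7 CPM in WT libraries.

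Genes of G1 and S phase leaned toward higher values in Glut1 transgenic libraries. Of 75 tested, 9 (12%) were higher and 1 was lower at an unadjusted p under 0.05 in edgeR, beside 0.897% and 1.15% of all genes, and 63 had a positive log2 fold change, with a median of 0.32. For 18 of the 75 all 4 Glut1 transgenic libraries lay above both WT libraries, and for 1 they lay below. In 0 cases did the adjusted p of edgeR pass, and DESeq2 passed 1 of them, Hells. Hells, a chromatin remodeller that works with DNA methylation, stood at 17.6, 15.4, 18.8 and 19.6 CPM in Glut1 transgenic replicates 1 to 4. In WT replicates 1 and 2 it stood at 5.06 and 7.48 CPM, from 34 and 50 reads. The Glut1 transgenic libraries of Hells lay close together, and the lowest of them was above both WT libraries. Its log2 fold change was 1.5045 (SE 0.31, edgeR adjusted p = 0.938), with an adjusted p of 0.0270 in DESeq2. Hells lies on chromosome 19 of mm10 from 38930915 to 38971051.

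Of the 6 subunits of the MCM helicase, which unwinds DNA at replication forks, 4 were higher. Mcm4 stood at 40.5, 41.1, 54.6 and 37.5 CPM in Glut1 transgenic and at 21.6 and 30.2 CPM in WT libraries. For Mcm4 the log2 fold change was 0.74 (SE 0.22). Mcm3 had a log2 fold change of 0.43 (SE 0.18), with 57.3 to 82.2 CPM in Glut1 transgenic and 50.6 and 54.0 CPM in WT libraries. The other 2 subunits, Mcm6 and Mcm5, and the genes Prim1, Dnmt1 and Chaf1a were named after their values were seen. Mcm6 stood at 76.9, 98.9, 89.3 and 62.2 against 45.0 and 60.6 CPM, a log2 fold change of 0.63 (SE 0.27). Mcm5 stood at 32.7, 39.3, 36.4 and 48.0 against 25.02 and 27.1 CPM, a log2 fold change of 0.58 (SE 0.26). In these 4 genes no Glut1 transgenic library fell to the level of a WT library, with Mcm6 nearest to overlap. The other subunits, likewise named, had an unadjusted p over 0.05, with a log2 fold change of 0.48 (SE 0.23) for Mcm7, whose groups were apart, and 0.32 (SE 0.19) for Mcm2, whose groups overlap.

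Fork and chromatin genes made up the rest of the 9. Clspn, which carries the checkpoint signal of stalled forks, stood at 22.2 to 30.2 CPM in Glut1 transgenic and at 15.3 and 18.7 CPM in WT libraries (log2 fold change 0.64, SE 0.23). Dnmt1, which copies DNA methylation onto new strands, had a log2 fold change of 0.45 (SE 0.21). Prim1, a primase subunit, had 0.56 (SE 0.26), and Chaf1a, which places histones on new DNA, had 0.70 (SE 0.33). The 1 lower gene was Orc6, of the origin recognition complex, at 3.63 to 5.16 CPM in Glut1 transgenic and at 9.83 and 7.03 CPM in WT libraries (log2 fold change -0.87, SE 0.37). The adjusted p of edgeR was 1 for each of these genes and for the 4 MCM genes. By library, the median of the list lay at 0.15, 0.24, 0.04 and 0.05 in Glut1 transgenic replicates 1 to 4 and at -0.31 and -0.09 in WT replicates 1 and 2, as log2 CPM less the 6-library mean of each gene. The median log2 fold change of the G1 and S phase list lay between 0.18 without WT replicate 1 and 0.49 without WT replicate 2. The count of higher G1 and S phase genes was smaller without WT replicate 1. It was 3 without Glut1 transgenic replicate 2, where 114 autosomal genes were higher. Without both hearts that held Y-linked reads it was 4 of 74, where 0.571% of all autosomal genes were higher.

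**Figure D2:**
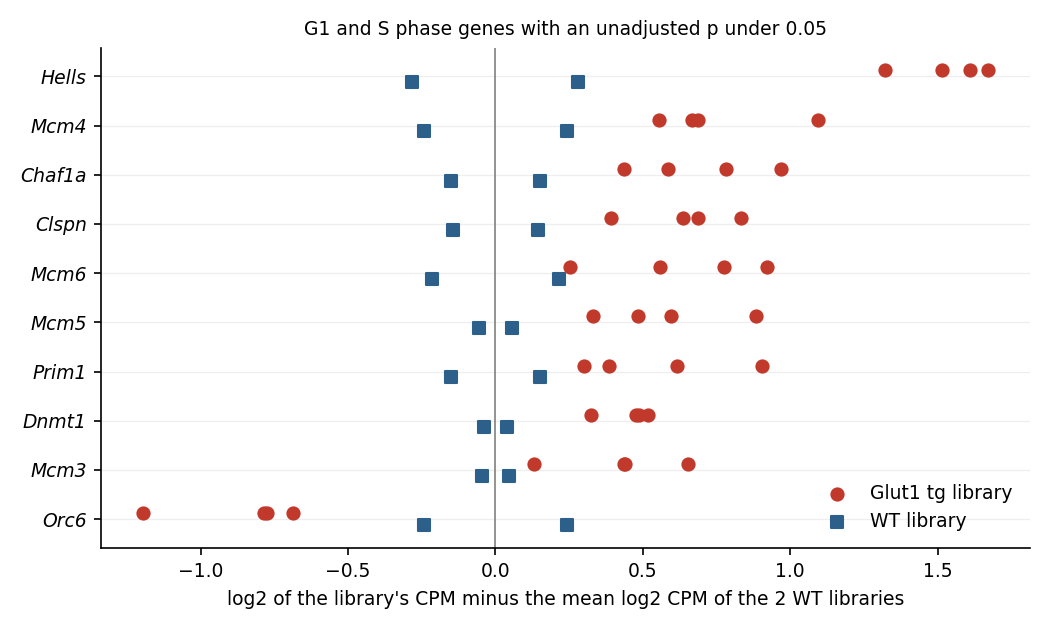
The 10 genes of the G1 and S phase list with an unadjusted p under 0.05 in edgeR, with each library's log2 CPM minus the mean log2 CPM of the 2 WT libraries (horizontal axis). Red circles are the 4 Glut1 transgenic and blue squares the 2 WT libraries. In 9 genes the Glut1 transgenic libraries lie to the right of both WT libraries, and in Orc6 they lie to the left.

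Many replication genes carry E2F-type letters just before their start, the site class bound by the E2F factors that drive S phase genes. The letters searched on both strands, in the 250 bases before each start of the RefSeq promoters of build GRCm38.p6, were TTCCCGC or TTGGCGC or TTCGCGC or TTGCCGC. They occurred in 2591 of all 32851 promoters (7.89%), and 9.01% of genes had them at 1 or more starts. Of the 75 tested G1 and S phase genes, 58 had a promoter in the table and 27 of these (46.6%) held the letters. Of the 9 higher genes, 8 had a promoter and 6 of these held the letters, while Mcm3 and Clspn did not. In G2 and M phase genes the share was 11 of 67 (16.4%). A match describes the letters only. The 3 sequences here show higher genes with more than 1 match, 5′ to 3′ on the strand of the gene, with the matches in capitals. Matches on opposite strands overlap in Mcm6 and Mcm5. Hells is at chr19:38930740-38930989 (plus strand), Mcm6 at chr1:128359706-128359955 (minus strand) and Mcm5 at chr8:75109259-75109508 (plus strand).
Hells: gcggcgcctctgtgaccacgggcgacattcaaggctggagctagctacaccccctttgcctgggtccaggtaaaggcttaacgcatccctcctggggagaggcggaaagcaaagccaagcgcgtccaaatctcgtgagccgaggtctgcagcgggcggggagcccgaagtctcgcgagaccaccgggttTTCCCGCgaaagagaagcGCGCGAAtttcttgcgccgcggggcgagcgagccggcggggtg
Mcm6: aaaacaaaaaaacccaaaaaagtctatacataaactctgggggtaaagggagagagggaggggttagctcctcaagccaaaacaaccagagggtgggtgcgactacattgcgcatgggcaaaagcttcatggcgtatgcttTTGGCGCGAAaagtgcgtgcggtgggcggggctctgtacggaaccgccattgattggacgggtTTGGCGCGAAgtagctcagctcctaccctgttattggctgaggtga
Mcm5: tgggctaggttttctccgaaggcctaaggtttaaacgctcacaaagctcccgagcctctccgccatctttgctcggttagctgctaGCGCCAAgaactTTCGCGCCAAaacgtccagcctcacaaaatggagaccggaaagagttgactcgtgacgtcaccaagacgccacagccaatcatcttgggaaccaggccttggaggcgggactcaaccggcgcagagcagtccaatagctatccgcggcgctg
The last base of each lies next to the RefSeq start. The matches of Hells begin 61 and 43 bases before this start. The span of Hells given above comes from a different annotation and begins upstream of the RefSeq start, so these matches lie inside that span.

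Genes of G2 and mitosis varied more within a genotype than between them. Of 78 tested, 67 had a positive log2 fold change, with a median of 0.28, but 1 was higher and 1 lower at an unadjusted p under 0.05 in edgeR, and the Glut1 transgenic libraries were apart from WT in 4. The libraries of 1 genotype differed widely. The list median was 0.47 and 0.67 in Glut1 transgenic replicates 1 and 2, -0.19 and -0.63 in replicates 3 and 4, and -0.32 and 0.16 in the WT libraries. Top2a, the topoisomerase of dividing cells, stood at 237, 308, 146 and 93.5 CPM in Glut1 transgenic and at 138 and 194 CPM in WT libraries. Its range in Glut1 transgenic hearts thus took in both WT values, and its log2 fold change was 0.24 (SE 0.36). Neither Top2a nor Foxm1 had an unadjusted p under 0.05. Foxm1, a transcription factor of mitotic genes, had 60.4, 75.5, 48.7 and 24.7 CPM against 28.6 and 35.3 CPM (log2 fold change 0.71, SE 0.45). The same split, with replicates 1 and 2 high and replicate 4 lowest or near it, was seen in Ccnb2 (47.8, 51.0, 25.9 and 12.4 CPM) and in Kif11 (95.4, 104, 56.0 and 18.2 CPM), a cyclin and a spindle motor.

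Among the 16 cell cycle genes that the study drew in its heatmap, a list chosen on these samples and thus no independent evidence, 15 had a positive log2 fold change, with a median of 0.40. Of these 16, 1 had an unadjusted p under 0.05, Kifc1, a spindle motor at 22.1, 20.8, 31.0 and 21.4 CPM in Glut1 transgenic and at 9.38 and 15.3 CPM in WT libraries (log2 fold change 0.95, SE 0.36). Kifc1 shares 58.4% of its 30-base words with other transcripts. The 1 lower gene of the G2 and M list was Hmgb2, a chromatin protein of dividing cells, at 83.9, 69.0, 14.2 and 14.7 CPM against 126 and 210 CPM (log2 fold change -1.88, SE 0.66). Hmgb2 shares 21.7% of its words. Without Glut1 transgenic replicate 4, 7 of the 78 genes were higher at an unadjusted p under 0.05, where 100 autosomal genes were higher. Without WT replicate 1 the median of the G2 and M list was 0.02, and without WT replicate 2 it was 0.53.

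Markers of endothelial cells split the libraries along the same lines in reverse. Their summed level was 23.0 and 27.3 CPM in Glut1 transgenic replicates 1 and 2, 121 and 165 CPM in replicates 3 and 4, and 188 and 30.2 CPM in WT replicates 1 and 2. Cdh5, the endothelial cadherin, stood at 2.39, 1.91, 16.9 and 33.4 CPM in Glut1 transgenic and at 31.3 and 4.04 CPM in WT libraries. The libraries with more of these markers, Glut1 transgenic replicates 3 and 4 and WT replicate 1, were those with the lower medians of mitotic genes. The part of these cells in the result was not tested. In bulk samples, fewer cells of a type and less RNA per cell cannot be told apart.

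**Figure D3:**
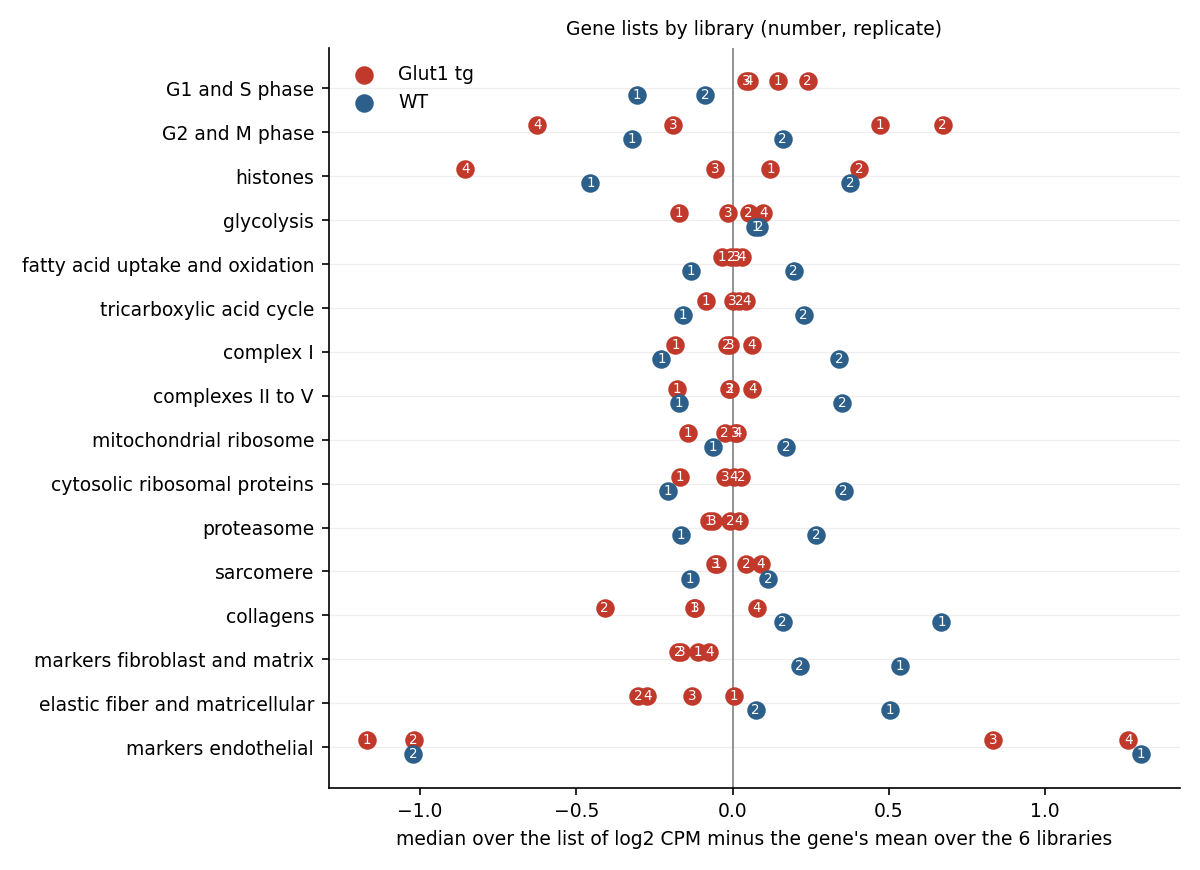
Median over each gene list of log2 CPM minus the gene's mean over the 6 libraries (horizontal axis, log2 units), for the 4 Glut1 transgenic (red) and 2 WT (blue) libraries, with the replicate number in each point. The 4 Glut1 transgenic libraries lie above both WT libraries for G1 and S phase genes and below both for collagens, fibroblast and matrix markers and elastic fiber genes. The last 2 lists share members, Eln among them. Mitotic genes split the Glut1 transgenic libraries from 0.67 to -0.63, and in respiratory lists WT replicate 2 lies above all other libraries.

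Histone genes, which package DNA and are made in bulk in S phase, moved in both directions. Hist1h2bj, a histone H2B gene, stood at 14.6, 11.2, 6.85 and 6.27 CPM in Glut1 transgenic replicates 1 to 4 and at 146 and 121 CPM in the WT libraries. The 4 Glut1 transgenic libraries held 153, 100, 54 and 49 reads of it, against 981 and 806 in WT. The groups stood far apart, and Hist1h2bj fell by 3.76 on the log2 scale (SE 0.52, edgeR adjusted p = 0.0365; DESeq2 adjusted p = 0.00164). With any 1 of the 6 Mitotracker-high libraries left out, the log2 fold change of Hist1h2bj stayed between -4.03 and -3.60, but its edgeR adjusted p was 0.0694 to 0.272 and the call was lost. The lowest of these came without Glut1 transgenic replicate 1 and the highest without Glut1 transgenic replicate 3. Its neighbour Hist1h2ah, a histone H2A gene, stood at 0.26 to 2.20 CPM in Glut1 transgenic and at 68.8 and 7.03 CPM in WT libraries (log2 fold change -4.70, SE 1.15, edgeR adjusted p = 1, and -2.29 without WT replicate 1). Hist1h2bj lies on chromosome 13 of mm10 from 22043214 to 22043676 and Hist1h2ah from 22035164 to 22035568.

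Hist1h2ac and Hist1h2bc were higher, with log2 fold changes of 3.92 (SE 1.07) and 1.61 (SE 0.72). Hist1h2ac stood at 23.6, 102, 137 and 4.73 CPM in Glut1 transgenic and at 2.09 and 6.73 CPM in WT libraries. Replicate 4 of the Glut1 transgenic hearts was below WT replicate 2, so these groups overlap. Over the 53 tested histone genes, 28 had a positive and 25 a negative value, with a median of 0.03 that was -0.28 without WT replicate 1 and 0.63 without WT replicate 2. Of the 53 histone genes, 47 share at least 5% of their 30-base words with other transcripts: Hist1h2bj 67.7%, Hist1h2ah 91.2%, Hist1h2bc 33.5% and Hist1h2ac 13.9%. Alignment records that were not unique were set aside and counted for no gene. How the other reads of shared words were assigned is not known, so a lower value of 1 histone gene is uncertain. The study used an mRNA library kit, and how much of the histone RNA such libraries hold was not tested. With genes of shared sequence left out, 6 histone genes remained in the test, with 0 at an unadjusted p under 0.05.

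The promoter of Hist1h2bj is shown because it was the 1 gene called in edgeR. CCAAT, the letters bound by NF-Y at histone and cell cycle promoters, or its reverse complement ATTGG, occurs 5 times in the 250 bases before its start. Of all promoters 33.8% hold these letters at least once, and so do those of 41 of the 48 tested histone genes with a promoter in the table. The window is chr13:22042948-22043197 of GRCm38.p6 (plus strand), with the matches in capitals.
Hist1h2bj: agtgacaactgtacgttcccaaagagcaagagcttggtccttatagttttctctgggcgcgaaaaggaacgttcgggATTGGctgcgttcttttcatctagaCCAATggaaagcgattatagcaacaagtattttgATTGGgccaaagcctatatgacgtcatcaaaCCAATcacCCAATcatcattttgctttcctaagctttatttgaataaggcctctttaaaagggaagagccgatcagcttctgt
The matches begin 173, 148, 114, 83 and 75 bases before the start.

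Most genes of the extracellular matrix had negative values, and 1 of them, Eln, passed with DESeq2. Eln encodes elastin, the protein of elastic fibers. Its level was 2.96, 7.63, 7.11 and 4.35 CPM in Glut1 transgenic replicates 1 to 4, from 31, 68, 56 and 34 reads. In the WT libraries Eln was at 25.9 and 21.7 CPM, from 174 and 145 reads. The highest Glut1 transgenic library was thus far below the lower WT library. The log2 fold change of Eln was -2.11 (SE 0.50, edgeR adjusted p = 1), and Eln fell in DESeq2 (adjusted p = 0.0456) and in edgeR with no filter on low counts (adjusted p = 0.0106). For Glut1 against WT Tnnt2low cells the study lists Eln as upregulated, the opposite direction. Eln shares 1.05% of its words with other transcripts and lies on chromosome 5 of mm10 from 134702593 to 134747323. Thbs1, the matricellular protein thrombospondin 1, stood at 4.78, 2.69, 2.54 and 3.84 CPM against 15.9 and 6.58 CPM (log2 fold change -1.69, SE 0.72, and -0.92 without WT replicate 1).

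The list of fibroblast and matrix markers shares members with the elastic fiber list, Eln among them. For the fibroblast and matrix markers, 29 of 32 tested genes had a negative log2 fold change, with a median of -0.59. Of these, 3 were lower and 0 higher at an unadjusted p under 0.05 in edgeR, and for 9 the Glut1 transgenic libraries all lay below WT. Pdgfra, a receptor that marks cardiac fibroblasts, stood at 4.30, 2.02, 0.64 and 0 CPM against 14.9 and 4.34 CPM (log2 fold change -2.42, SE 0.92, and -1.28 without WT replicate 1). Fn1, fibronectin, stood at 16.6, 12.5, 27.2 and 50.7 CPM against 113 and 23.9 CPM (log2 fold change -1.36, SE 0.63), and its groups overlap. Without WT replicate 1 the log2 fold change of Fn1 was 0.15, so its direction rests on that library. Collagen chains had a median of -0.72, with 18 of 23 negative. For 8 of the 23 the Glut1 transgenic libraries lay below WT, while 0 had an unadjusted p under 0.05 in edgeR. Among those 23, Col1a1 and Col3a1, fibrillar chains named after their values were seen, had log2 fold changes of -1.11 (SE 0.62) and -0.70 (SE 0.65).

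The basement membrane chains Col4a1 and Col4a2, at 751 to 821 and 754 to 823 CPM in Glut1 transgenic libraries, had log2 fold changes of 0.04 and -0.01 (SE 0.17 and 0.16). Summed over all 33 markers, the fibroblast and matrix level was 1131 to 1196 CPM in Glut1 transgenic and 1338 and 1482 CPM in WT libraries, which do not overlap. The sum of endothelial markers did overlap, at 23.0 to 165 CPM against 30.2 and 188 CPM. WT replicate 1 was the library with the highest matrix medians, 0.54 for the fibroblast list, and without it the medians were -0.32 for fibroblast and matrix markers, -0.35 for collagens and -0.05 for elastic fiber genes (main median -0.40). Without WT replicate 2 they were -0.58, -0.74 and -0.50. A share of fibroblasts and the level per cell cannot be told apart in these libraries, and the part of such cells in the result was not tested.

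Nuclear genes of the respiratory chain, which feeds electrons to oxygen to make ATP, had small negative medians that changed sign without WT replicate 2. For the list drawn up for complex I, which counts Ndufa4 as a member, the median was -0.11, with 28 of 34 negative and 3 lower at an unadjusted p under 0.05. For complexes II to V it was -0.11, with 34 of 40 negative and 2 lower. Ndufa4, a subunit of the chain, stood at 152, 155, 169 and 148 CPM in Glut1 transgenic and at 197 and 217 CPM in WT libraries. Both groups were apart, with a log2 fold change of -0.41 (SE 0.15). Cox8a, of complex IV, stood at 276 to 293 CPM against 351 and 377 CPM (log2 fold change -0.35, SE 0.14). Ndufa11 and Cox5a had -0.35 and -0.36 (SE 0.16 and 0.15). Ndufab1, an acyl carrier protein, varied from 2.30 to 164 CPM within Glut1 transgenic hearts, against 198 and 316 CPM, and shares 9.93% of its words.

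Without WT replicate 2 the medians of complex I and of complexes II to V were 0.22 and 0.14, and without WT replicate 1 they were -0.36 and -0.41. The counts of lower genes in these lists also changed between these settings. WT replicate 2 was also the library with the most reads outside exons. The same turn of sign was seen in the mitochondrial ribosome (main median -0.06; 0.02 without WT replicate 2), the tricarboxylic acid cycle (-0.05; 0.13), fatty acid uptake and oxidation (-0.09; 0.13) and the proteasome (-0.09; 0.13). The direction of these lists was thus not stable over the 2 WT libraries. Within the mitochondrial ribosome, 5 of 77 genes were lower at an unadjusted p under 0.05 in edgeR. Among them Mrps10 stood at 19.4 to 25.4 CPM against 39.0 and 35.7 CPM (log2 fold change -0.74, SE 0.27) and shares 6.20% of its words.

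**Figure D4:**
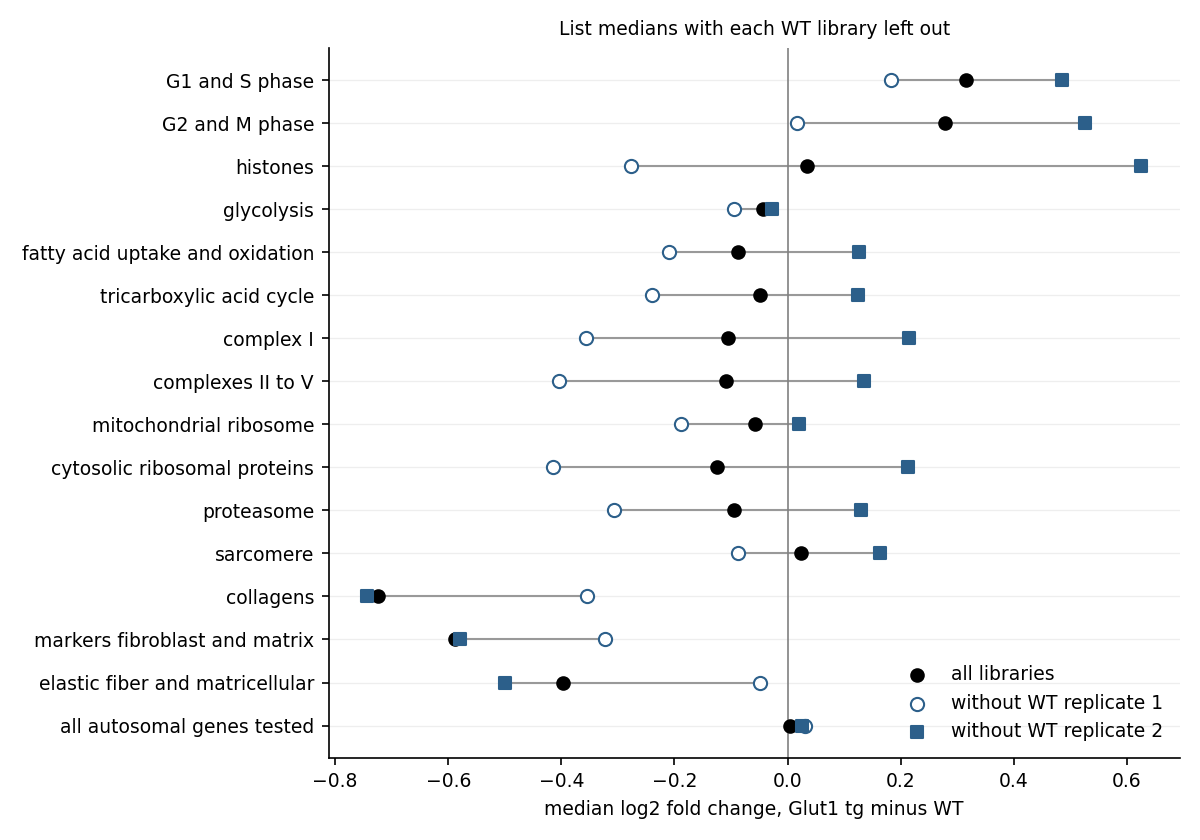
Median log2 fold change, Glut1 transgenic minus WT (horizontal axis), of gene lists with all libraries (black circles), without WT replicate 1 (open circles) and without WT replicate 2 (blue squares). Respiratory chain, ribosome, proteasome and histone medians change sign between the 2 settings, from -0.36 to 0.22 for complex I. G1 and S phase genes stay above 0 and the 3 matrix lists below it, with elastic fiber genes at -0.05 without WT replicate 1. The fibroblast and elastic fiber lists share members, Eln among them, and are not separate results.

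In the metabolic lists nearer to glucose no gene passed a test. Of 21 glycolysis genes and 23 of glycogen metabolism, 0 had an unadjusted p under 0.05 in edgeR, with medians of -0.04 and -0.03. The same count was 0 of 39 for the pentose phosphate path and nucleotide synthesis, 0 of 10 for the polyol and hexosamine paths and 0 of 11 for control of pyruvate dehydrogenase, with medians of 0.01, 0.00 and 0.01. In edgeR 0 genes of these lists had an adjusted p under 0.05, and DESeq2 also called 0. Aldoa, an aldolase of glycolysis, stood at 1482 to 1756 CPM in Glut1 transgenic and at 2073 and 1708 CPM in WT libraries (log2 fold change -0.24, SE 0.14). Pdk4, a kinase that turns off pyruvate dehydrogenase, stood at 332 to 638 CPM against 348 and 492 CPM (log2 fold change 0.12, SE 0.30).

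Of 15 glucose-responsive genes, Arrdc4 was the 1 with an unadjusted p under 0.05. Arrdc4, an arrestin-domain protein induced by glucose through the factors MondoA and ChREBP, stood at 49.2, 35.7, 84.6 and 87.4 CPM in Glut1 transgenic and at 36.5 and 28.4 CPM in WT libraries. Replicates 3 and 4 were high, and replicate 2 was just under WT replicate 1. Its log2 fold change was 0.98 (SE 0.33, edgeR adjusted p = 1). Txnip, its relative and another target of these factors, named after its values were seen, was at 483, 406, 754 and 709 CPM against 510 and 326 CPM (log2 fold change 0.49, SE 0.27). Klf10, likewise named, was at 30.8, 23.9, 55.8 and 49.9 CPM against 25.5 and 23.0 CPM (log2 fold change 0.72, SE 0.41). Txnip and Klf10 had an unadjusted p over 0.05. Over the 15 genes, 7 had a positive and 8 a negative log2 fold change, with a median of -0.01.

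The promoters of Arrdc4 and Txnip are shown because glucose acts on such genes through E-box letters. Arrdc4 holds 1 CACGTG, beginning 193 bases before the start, which 6.02% of all promoters hold. Of the 12 tested glucose-responsive genes with a promoter in the table, 4 (33.3%) hold CACGTG and 1 holds the CACGNG pair described next. Txnip holds CACGNG repeated after 5 free bases, beginning 85 bases before the start, a spacing that 15 of the 32851 promoters (0.0457%) hold on either strand. The windows are chr7:68749239-68749488 (minus strand) and chr3:96557707-96557956 (plus strand) of GRCm38.p6, with these matches in capitals.
Arrdc4: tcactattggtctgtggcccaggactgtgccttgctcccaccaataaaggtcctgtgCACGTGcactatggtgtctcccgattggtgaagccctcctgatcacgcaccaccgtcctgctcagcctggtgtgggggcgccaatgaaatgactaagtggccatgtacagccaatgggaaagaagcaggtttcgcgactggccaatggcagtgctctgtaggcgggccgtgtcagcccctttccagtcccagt
Txnip: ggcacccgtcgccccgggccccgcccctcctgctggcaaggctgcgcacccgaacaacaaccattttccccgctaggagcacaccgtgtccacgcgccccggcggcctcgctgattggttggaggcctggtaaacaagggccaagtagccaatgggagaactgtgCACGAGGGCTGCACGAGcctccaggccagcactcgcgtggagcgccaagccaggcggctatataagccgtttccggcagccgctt

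Contractile and cardiac identity genes had medians near 0. Of 44 sarcomere genes, 1 was lower at an unadjusted p under 0.05 in edgeR, Tnnt2, and the list median was 0.02. Myh6, the main myosin heavy chain, stood at 60325 to 72420 CPM in Glut1 transgenic and at 68831 and 63903 CPM in WT libraries (log2 fold change -0.02, SE 0.10). Myl2, the ventricular light chain, had a log2 fold change of -0.26 (SE 0.15). Myh7, the fetal heavy chain, varied from 2618 to 7646 CPM within Glut1 transgenic hearts and was 1507 and 7091 CPM in the WT libraries, so that its spread within each group exceeded its log2 fold change of 0.39 (SE 0.61). Of 35 genes of calcium handling, 24 cardiac transcription factors and 27 fetal and stress genes, 0 had an unadjusted p under 0.05 in edgeR, with medians of -0.01, 0.06 and -0.01.

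Markers of cardiomyocytes summed to 132700 to 164600 CPM in Glut1 transgenic and to 146300 and 168300 CPM in WT libraries, so the markers of the labelled cell type were abundant in all 6. Leukocyte and erythroid markers summed to at most 9.14 and 9.08 CPM in any library. Schwann and neuronal markers summed to at most 30.2 CPM, most of it from Uchl1, a ubiquitin hydrolase of neurons, at 12.6 to 27.1 CPM. The leukocyte markers Fcgr1, Tyrobp, Fcer1g, S100a8 and Cd3e and the globin genes were listed at 0 in all 6 libraries. So were Ndufs5, Rpl26 and 8 histone genes, and between 28.2% and 38.3% of the alignment records of a library were set aside as not unique, so a listed 0 of a gene with copies does not show that its RNA was absent.

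Among stress and signal genes, Gadd45b, a growth arrest gene induced by stress, stood at 36.1, 31.9, 47.8 and 34.02 CPM in Glut1 transgenic and at 22.9 and 20.6 CPM in WT libraries. The groups were apart, with a log2 fold change of 0.78 (SE 0.25, edgeR adjusted p = 1). Dusp1, a phosphatase of the immediate early class, had 0.69 (SE 0.25), with 48.7 to 98.6 CPM against 53.9 and 41.6 CPM. These 2 were the higher genes of 25 tested in the immediate early list, and 0 were lower. Hspa1a, an inducible heat shock protein, stood at 14.5, 17.7, 20.4 and 11.9 CPM against 9.08 and 6.13 CPM (log2 fold change 1.08, SE 0.44), with 65.7% of its words shared with its twin gene and others. Gclc and Txn1, which serve glutathione synthesis and thioredoxin reduction, were lower, with log2 fold changes of -0.94 (SE 0.36) and -0.40 (SE 0.18) and groups that did not overlap. Of the 35 antioxidant and hypoxia genes these 2 were lower and Slc2a1 was higher. Insulin, IGF and neuregulin signalling (27 genes), the Hippo path (21 genes) and the CDK inhibitors with the Rb family (8 genes) had 0 members at an unadjusted p under 0.05.

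Outside the lists, the largest lower values among genes with groups apart and at least 10 CPM included Trim7 and Ap4s1. Trim7, a ubiquitin ligase first described with glycogenin, stood at 8.80, 12.3, 11.2 and 9.08 CPM against 25.02 and 21.1 CPM (log2 fold change -1.15, SE 0.30). Ap4s1, a subunit of the AP-4 sorting complex, stood at 12.2, 12.3, 10.5 and 8.19 CPM against 22.3 and 23.2 CPM (log2 fold change -1.07, SE 0.28). Both groups of libraries were tight in both genes, and neither shares as much as 5% of its words. Ddt and BC031181 were lower by the same rule, at -0.998 and -0.979 (SE 0.36 and 0.41). On the higher side stood Napepld, an enzyme of lipid amide synthesis, with 24.1, 12.9, 26.5 and 28.1 CPM against 11.3 and 11.4 CPM (log2 fold change 1.01, SE 0.36). Map9, a spindle-associated protein, and Myef2, a repressor of myelin genes, had log2 fold changes of 1.02 and 1.00 (SE 0.44 and 0.32), with 24.7% of the words of Myef2 shared. The value of Map9 was 0.51 without WT replicate 2. The adjusted p of edgeR was 1 for all 7.

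Large changes were mostly found in genes that share sequence with other transcripts. Among genes averaging 10 CPM or more, 17 had an absolute log2 fold change over 2, and 15 of them (88.2%) share at least 5% of their words with other transcripts, against 13.7% of all 7641 genes of that level. Of 42 such genes with a 10-fold range among the 4 Glut1 transgenic libraries, 38 (90.5%) share sequence, and of 12 with a 10-fold range between the WT libraries, all 12 do. Rps6, a protein of the small ribosomal subunit, stood at 2.68, 3.37, 4.95 and 7.80 CPM in Glut1 transgenic and at 101 and 11.5 CPM in WT libraries (log2 fold change -3.59, SE 0.68, edgeR adjusted p = 0.569), with 45.0% shared. Its log2 fold change was -1.30 without WT replicate 1, and it was called without WT replicate 2 (-4.43, edgeR adjusted p = 0.0245). Rpl29 stood at 23.2, 34.8, 31.98 and 83.6 CPM against 13.3 and 5.98 CPM (log2 fold change 2.17, SE 0.61), with 45.4% shared.

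Sumo2, a small modifier protein, had 52, 258, 284 and 22 reads in Glut1 transgenic replicates 1 to 4 and 0 in both WT libraries, at least 81.3-fold higher against a floor of 3 reads over the WT group. Sumo2 shares 22.8% of its words, and its adjusted p was 1.28e-11 with DESeq2 and 1 with edgeR. Of 71 cytosolic ribosomal protein genes, 69 of which share sequence, 7 were lower and 2 higher at an unadjusted p under 0.05, with a median of -0.13 that was 0.21 without WT replicate 2. Slc2a1, Slc2a3, Hells and Eln each share under 5% of their words, as the plot of level against fold change shows.

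**Figure D5:**
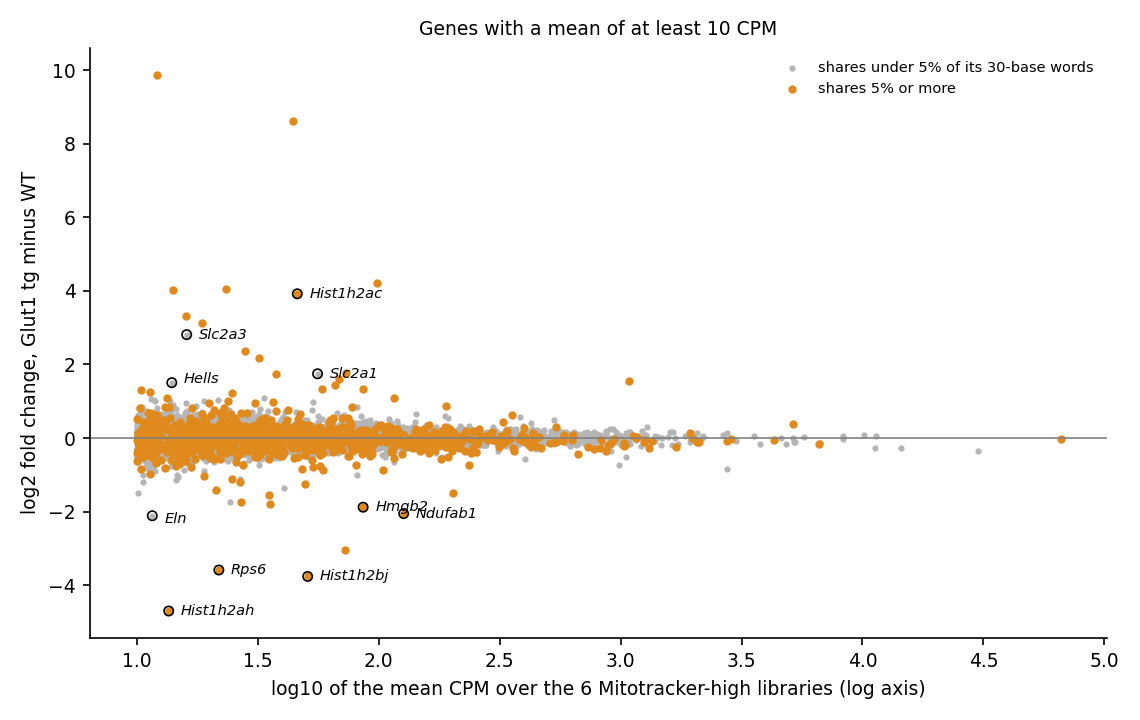
Log2 fold change, Glut1 transgenic minus WT (vertical axis), against log10 of the mean CPM over the 6 Mitotracker-high libraries (horizontal axis), for the 7641 autosomal genes tested with a mean of at least 10 CPM. Orange points share at least 5% of their 30-base words with other transcripts and grey points less. Most points far from 0 are orange (15 of the 17 beyond 2 in absolute value), and Slc2a1, Slc2a3, Hells and Eln are grey.

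Mitotracker-low cells of the same hearts were used to ask whether a difference was particular to Mitotracker-high cells. In edgeR 0 autosomal genes passed the test of the difference between both genotype effects, with 531 (4.49%) at an unadjusted p under 0.05. In Mitotracker-low cells 0 genes differed between genotypes at an adjusted p under 0.05 in edgeR, with 245 higher and 374 lower at an unadjusted p under 0.05. Slc2a1 had a log2 fold change of 1.601 there (SE 0.42), which differed from that in Mitotracker-high cells by 0.15 (SE 0.56, edgeR adjusted p = 0.997). Slc2a3 had 4.44 there (SE 0.83, edgeR adjusted p = 0.543), above its value in Mitotracker-high cells, with a difference of -1.63 (SE 1.04, edgeR adjusted p = 0.961). Arrdc4 had 0.96 there against 0.98, a difference of 0.02 (SE 0.45, edgeR adjusted p = 0.999). For Hells the value was 0.73 (SE 0.30), with a difference of 0.77 (SE 0.42, edgeR adjusted p = 0.961).

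Several genes pointed the other way in Mitotracker-low cells. Eln had a log2 fold change of 1.39 there (SE 0.53), so the effects differed by -3.51 (SE 0.74, edgeR adjusted p = 0.698). Hist1h2bj had 0.59 (SE 0.59), a difference of -4.35 (SE 0.82, edgeR adjusted p = 0.698). Kifc1 had -1.35 (SE 0.35), a difference of 2.30 (SE 0.50, edgeR adjusted p = 0.698), and Trim7 had 0.68 (SE 0.33), a difference of -1.84 (SE 0.45, edgeR adjusted p = 0.961). The study lists Eln, Fn1, Hist1h2ah and Rps3a1 as upregulated in Glut1 against WT Tnnt2low cells. Here each was lower in Mitotracker-high cells and positive in Mitotracker-low cells (0.98 for Fn1, 2.24 for Hist1h2ah, 2.12 for Rps3a1). Its list also holds Slc2a1, Slc2a3 and Arrdc4, which were higher here, but its Tnnt2high list of Glut1 against WT holds these genes too. Hells, Sumo2, Hist1h2ac, Hist1h2bc, Rpl29, Myef2 and Napepld, higher here, are on its Tnnt2high list and not on its Tnnt2low list. Why the directions differ was not tested. For WT hearts alone, the study lists Hist1h2bj, Hist1h2ah, Hist1h2bl, Rps6, Rps3a1, Hmgb2, Ndufab1 and Trim7 as upregulated in Tnnt2low against Tnnt2high cells. Each of these genes was lower in Glut1 transgenic Mitotracker-high cells here. A low level in those cells and a high level in the 2 WT Mitotracker-high libraries were not told apart. Reads outside every exon, per gene read, were 2.26 to 2.63 in the Mitotracker-low Glut1 transgenic libraries and 1.83 and 1.51 in the WT ones, higher in the transgenic libraries where in Mitotracker-high cells they were lower. The part of this in the differences between gates was not tested. By list, the median log2 fold change in Mitotracker-low cells was 0.09 for G1 and S phase genes, -0.68 for G2 and M phase genes, 0.58 for fibroblast and matrix markers and 0.29 for complex I. Of the G2 and M phase genes 20 of 78 had an unadjusted p under 0.05 for the difference of effects in edgeR, as did 7 of 75 G1 and S phase genes, 13 of 34 complex I genes and 3 of 32 fibroblast and matrix markers, against 4.49% of all genes. With 0 genes past the adjusted threshold, a genotype effect particular to Mitotracker-high cells was not shown for any 1 gene.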

How the data were processed

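RNA was sequenced as single-end reads of 50 bases from sorted P1 cardiomyocytes. The authors trimmed bases under a Phred score of 20, aligned reads with HISAT2 to mm10 and counted them over exons with HTSeq, and they deposited raw counts per gene for each library. The sources used here do not give versions, strand or counting mode. The 5 summary lines of each table stayed out of library sizes and tests.

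Counts of all 12 libraries (4 Glut1 transgenic and 2 WT in each Mitotracker gate) were fitted in edgeR 4.0.16 (R 4.3.3) with filterByExpr, TMM scaling and the quasi-likelihood test on 1 coefficient per group. Benjamini-Hochberg adjustment ran over all 12252 genes tested, and adjusted p under 0.05 was the threshold. An unadjusted p under 0.05 was used for counts only. DESeq2 1.42.0 and limma 3.58.1 (voom) served as alternatives, together with RLE scaling, no filter, the 6 libraries alone, thinning, robust dispersion, offsets for length and GC content, genes of shared sequence left out, hearts with Y-linked reads left out, a replicate block, each library left out and, added after seeing the data, the heart label as a block between gates. The test was checked on simulated data. Shared sequence is the percent of a gene's 30-base words found in transcripts of other genes. Promoters come from RefSeq (GRCm38.p6). Figures and motif searches used Python 3.11.15, pandas 2.3.3, numpy 2.4.6 and matplotlib 3.10.9.

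Genes are named if they passed in edgeR or DESeq2, were among the 10 largest changes in a direction with groups apart, at least 10 CPM and an unadjusted p under 0.05, were among up to 4 list members per direction of lowest p (or the list's 2 most abundant), or are named by the study on these libraries. Genes outside this rule are given as named after their values were seen. The genes, lists and rule were chosen with earlier results of these data known. Replicate numbers paired gates of the same heart label (correlation of deviations 0.107 to 0.271) and not the genotypes (-0.169 and 0.202). Counts of replicates differed by more than sampling noise (chi-square per gene 13.4 to 26.1), which does not show that they come from separate hearts.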

Additional observations from a re-analysis of the deposited data

Results flagged for a closer look

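Of 183 values checked over the 4 Glut1 transgenic libraries, 10 had 1 library farther from the others than Dixon's critical value for 4 samples allows, and chance flags about 1 in 20 groups. Replicate 3 stood apart in 4 genes. Its Kifc1 level was 30.96 CPM, with the others at 20.76 to 22.09 CPM. Tmem100, a gene of endothelial signalling, was at 8.63 CPM there and at 3.92 to 4.349 CPM in the others. The ribosomal protein gene Rpl14 was at 23.22 CPM against 35.69 to 37.04 CPM, and Rpl17 was at 95.94 CPM against 3.07 to 7.84 CPM. Replicate 1 stood apart in Rpl23a, at 70.75 CPM against 2.302 to 5.724 CPM, and in Rps7, at 70.56 CPM against 1.571 to 3.581 CPM. Replicate 2 stood apart in Rps29, at 23.12 CPM against 0 to 0.5737 CPM. Replicate 4 stood apart in Pygm, the muscle glycogen phosphorylase, at 614.5 CPM against 554.8 to 564.2 CPM. It also held 0 CPM of Mrc1, a macrophage receptor, against 1.235 to 1.434 CPM, and its median over the leukocyte markers was -0.824, against 0.495 to 0.715 in log2 units around the mean of the 6 libraries.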

How the results depend on the processing

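The count of genes past an adjusted p under 0.05 was 1 and changed to 5 with DESeq2, 10 with no filter on low counts (among them Slc2a1, Slc2a3, Eln and Rps6), 0 with robust dispersion, 0 with genes of shared sequence left out, and 0 without the hearts that held Y-linked reads. Leaving out 1 library gave 0 to 1, with 0 without each of the 4 Glut1 transgenic Mitotracker-high libraries, without WT Mitotracker-high replicate 1 and without Glut1 transgenic Mitotracker-low replicate 3, and without WT Mitotracker-high replicate 2 the 1 gene was Rps6. Higher genes at an unadjusted p under 0.05 (106) numbered 66 without the hearts with Y-linked reads and 99 to 227 with 1 library left out, 227 of them without WT Mitotracker-high replicate 2. Lower genes (136) numbered 230 with no filter, 80 without the hearts with Y-linked reads and 122 to 193 with 1 library left out. Gene lists with a negative median (26 of 45) numbered 14 to 29 with 1 library left out, 14 of them without WT Mitotracker-high replicate 2. Genes whose genotype effect differed between gates (0) numbered 7 with no filter and 0 to 1 with 1 library left out, 1 without Glut1 transgenic Mitotracker-low replicate 4. The cause was not tested in these cases. Of the 134 genes named by the rule, 56 had a log2 fold change of the other sign in at least 1 alternative, 25 of them without WT Mitotracker-high replicate 1 and 20 without WT Mitotracker-high replicate 2, and 0 of these passed an adjusted p under 0.05 with the other sign. Among genes at an unadjusted p under 0.05 in edgeR, those that turned were Fn1 (0.15 without WT Mitotracker-high replicate 1), Rps3a1 (0.56 without WT Mitotracker-high replicate 2) and Hist1h2bl (1.21 without WT Mitotracker-high replicate 2).

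Replicate numbers did not pair the genotypes. With the replicate number as a block the count of called genes was 3, Hist1h2bj, Slc2a1 (log2 fold change 2.13, edgeR adjusted p = 0.0329) and Stbd1, a glycogen-binding protein named after its values were seen (-1.71, edgeR adjusted p = 0.0153). The same 3 genes were called when the block was joined with the offset for length and GC content, where 175 genes were higher at an unadjusted p under 0.05. With the heart as a random block the count was 1, and 216 genes were lower at an unadjusted p. The test of the difference between gates was not run with DESeq2. With 2 WT libraries, 1 library decides many values, and depth limits the low genes, such as Hells with 34 and 50 reads in the WT libraries.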
